A study of Caenorhabditis elegans with 6 samples.

Results

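The subject is 9 lipase genes of Caenorhabditis elegans: lipl-1 to lipl-8, the lysosomal acid lipase family, and atgl-1, the adipose triglyceride lipase of fat droplets. They were picked out of the files by gene name, and all 9 names were found among the 46245 genes listed in each library. RNA was sequenced from animals grown at 20 °C and collected late in L4, the last larval stage. All 6 libraries came from mutants of both eat-2, allele ad465, and acs-20, allele tm3232. Of these, 3 were of the strain with these alleles only, called the reference strain below, and 3 were of the strain that also had the allele mkc18 of ptr-8, called the ptr-8 strain. The comparison thus addresses what a ptr-8 mutation adds to the eat-2; acs-20 background. ptr-8 encodes a membrane protein related to Patched. No strain with wild-type eat-2 or acs-20 was analysed here, so nothing can be said of the lipases against normally fed animals.

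Worms store energy as triglyceride in droplets, mainly in the intestine and epidermis. ATGL-1 cuts triglyceride on the droplet surface, with LID-1, a homologue of mammalian CGI-58, as its partner in fasting. The LIPL enzymes are related to mammalian lysosomal acid lipase and act on lipid delivered to the lysosome. In fed worms the factor MXL-3 represses several lipl genes, and in fasting HLH-30, the homologue of TFEB, activates them. LIPL-4 is known for a lysosomal lipid signal, carried by LBP-8 to nuclear receptors, that extends lifespan. EAT-2 is an acetylcholine receptor subunit of the pharynx whose mutants feed slowly, and ACS-20 activates fatty acids by joining them to coenzyme A.

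Levels are the deposited FPKM (fragments per kilobase of transcript, relative to the mapped fragments of the library) divided by a scaling factor per library, and so can be compared between genes. Fold changes are the ptr-8 strain minus the reference strain on log2(scaled FPKM + 1), a scale on which genes of low level appear to change less than they do. Adjusted p-values are from limma with Benjamini-Hochberg adjustment over 15204 tested genes, and a gene was called below 0.05. The labels do not say that libraries came from separate cultures, so p-values reflect only how far these libraries vary, and that variation may be technical. Relative depth, read from the width of the deposited intervals, ran from 0.571 to 1.51 of that of reference replicate 1, and reference replicate 3 was the shallowest. ptr-8 itself was at 21.8 ± 3.20 in the reference strain and 5.12 ± 0.599 in the ptr-8 strain (SD, n = 3 each; log2 fold change -1.89, adjusted p = 0.00551). acs-20 was at 62.1 ± 11.1 and 47.8 ± 4.21 (adjusted p = 0.263), and eat-2 was at or below 0.218 in every library.

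lipl-1 was the lipase gene that differed most between the strains, and it was lower in the ptr-8 strain. Its level was 34.5, 36.0 and 31.6 in the reference libraries and 8.54, 4.21 and 5.26 in the ptr-8 libraries. The groups lay far apart, and replicate 1 was the highest of the ptr-8 libraries. The mean fell from 34.1 ± 2.23 to 6.0 ± 2.26 (SD, n = 3 each), so that 17.6% of the reference level remained. The log2 fold change was -2.37 (SE 0.23, 95% interval -2.92 to -1.82, adjusted p = 0.00877), and 52 of the 15204 tested genes had a lower one. The deposited intervals of single libraries did not meet either: the lowest lower bound in the reference strain was 26.6 FPKM, and the highest upper bound in the ptr-8 strain was 9.49 FPKM. In bulk samples, fewer cells that express a gene and less of its RNA per cell cannot be told apart. lipl-1 lies on the plus strand of chromosome V, 12920007 to 12922116, and has 5 exons.

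The call of lipl-1 was lost when reference replicate 2 (adjusted p = 0.0531), reference replicate 3 (0.0555) or ptr-8 replicate 3 (0.0527) was left out. The fold change stayed between -2.17 and -2.61 in all 6 fits with 1 library left out.

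lipl-1 was also the only member called among the 8 that were tested, and no member was called higher. Of all tested genes, 2.06% were called lower and 0.355% higher. In 3 members, lipl-1, lipl-2 and lipl-5, all ptr-8 libraries lay below all reference libraries, and in none did all lie above. Over all tested genes these shares were 14.2% and 13.5%. The same 3 members had an unadjusted p below 0.05 in limma, against 20.6% of tested genes. The median log2 fold change of the 8 tested members was -0.18, and that of all tested genes was 0.01.

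**Figure D1:**
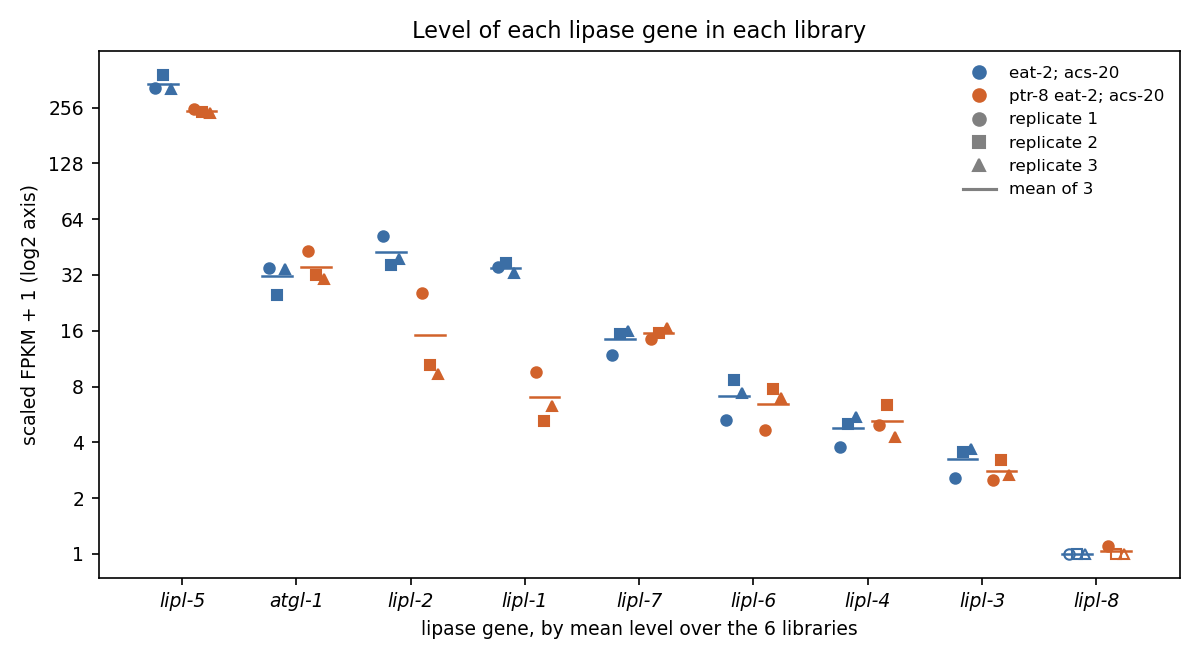
Scaled FPKM + 1 of each lipase gene (log2 axis), with 1 point per library, a shape per replicate and a line at the strain mean. Open points are listed at 0. The strains are apart in lipl-1 (31.6 to 36.0 against 4.21 to 8.54), lipl-2 and lipl-5, and overlap in the other 6 genes.

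lipl-2, another member of the lysosomal family, was lower in each ptr-8 library but did not pass. It was at 51.0, 35.4 and 38.2 in the reference libraries and at 24.6, 9.48 and 8.30 in the ptr-8 libraries. Within each strain replicate 1 was the highest, and the lowest reference value was still above the highest ptr-8 value. The means were 41.5 ± 8.31 and 14.1 ± 9.10 (SD, n = 3 each; log2 fold change -1.63, SE 0.40, adjusted p = 0.106). Without ptr-8 replicate 1 the fold change was -2.09 and the gene passed (adjusted p = 0.0305). With any other 1 library left out it did not pass (adjusted p 0.124 to 0.279), at fold changes of -1.36 to -1.74. lipl-2 lies on the plus strand of chromosome V, 9791571 to 9793391, with 5 exons.

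lipl-5 was by far the most abundant of the 9 in both strains. Its level was 326, 384 and 322 in the reference libraries and 249.9, 242 and 237 in the ptr-8 libraries. The ptr-8 libraries were close to each other and all below the reference. The mean was 344 ± 34.6 and 243 ± 6.40 (SD, n = 3 each), 70.6% of the reference level, with a log2 fold change of -0.50 (SE 0.10, 95% interval -0.74 to -0.25, adjusted p = 0.0693). It therefore missed the threshold, and it was called in 0 of 14 alternatives (adjusted p 0.063 to 0.660). On the FPKM as deposited, where the median gene shifts by 0.10, its fold change was -0.39 (adjusted p = 0.660). lipl-5 lies on the plus strand of chromosome V, 385737 to 388090, with 6 exons in its longest transcript.

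The summed level of the 8 lipl genes was mostly lipl-5 in every library, and it was lower in the ptr-8 strain. The sum was 431, 484 and 421 in the reference libraries and 306, 284 and 277 in the ptr-8 libraries, without overlap. lipl-5 made up 75.7%, 79.3% and 76.6% of this sum in the reference strain and 81.7%, 85.0% and 85.6% in the ptr-8 strain. lipl-1 made up 7.44% to 8.0% and then 1.48% to 2.79%. lipl-2 made up 7.30% to 11.8% and then 2.99% to 8.05%, so that its shares overlapped. The sums and shares are descriptions, with no test.

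**Figure D2:**
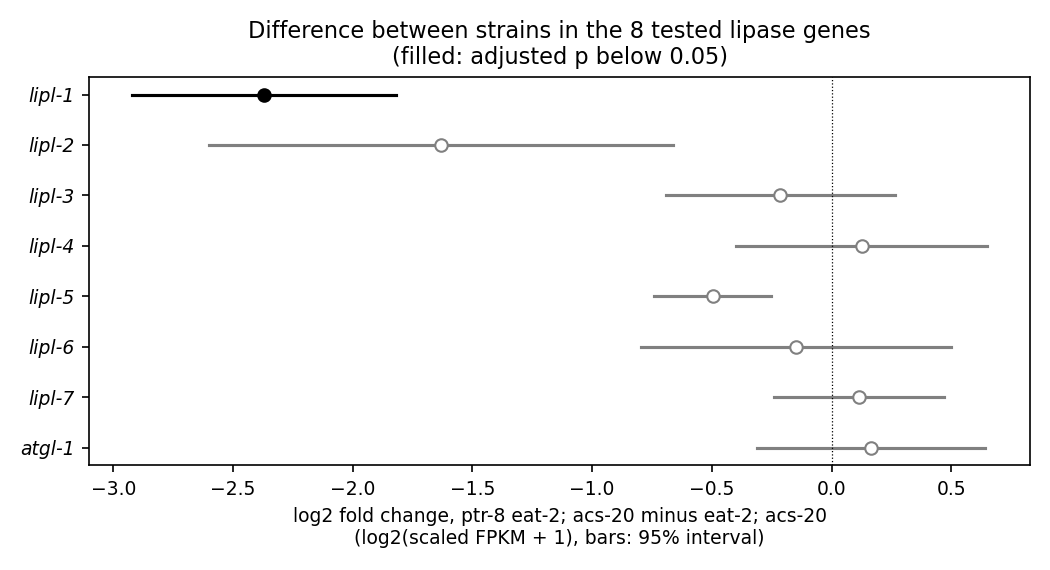
Log2 fold change of the 8 tested lipase genes (x axis, ptr-8 strain minus reference strain, log2(scaled FPKM + 1)) with 95% intervals. lipl-1 at -2.37 is the filled point, the only one called, and the intervals of lipl-3, lipl-4, lipl-6, lipl-7 and atgl-1 include 0.

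atgl-1, the droplet lipase, showed no difference beyond the spread between libraries. It was at 33.8, 23.8 and 33.6 in the reference libraries and at 42.2, 30.9 and 29.6 in the ptr-8 libraries. The groups overlapped, and ptr-8 replicate 1 was the highest of the 6. The means were 30.4 ± 5.73 and 34.2 ± 6.93 (SD, n = 3 each; log2 fold change 0.16, 95% interval -0.31 to 0.64, adjusted p = 0.667). The interval leaves room for a change of either sign. The ratio of atgl-1 to lipl-1 was 0.981, 0.661 and 1.06 in the reference libraries and 4.94, 7.33 and 5.63 in the ptr-8 libraries. The 2 genes thus stood at similar levels in the reference strain, and atgl-1 was several-fold above lipl-1 in every ptr-8 library. atgl-1 lies on the minus strand of chromosome III, 6415772 to 6421712, with 7 exons.

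lipl-7 was at 10.8, 14.5 and 15 in the reference libraries and at 13.4, 14.5 and 15.6 in the ptr-8 libraries. These values overlapped, with the single lowest in reference replicate 1 (log2 fold change 0.11, 95% interval -0.24 to 0.47, adjusted p = 0.691). It is the only lipl gene of the 8 that is not on chromosome V, lying on the minus strand of chromosome IV, 10239278 to 10241859. lipl-6 was at 4.30, 7.71 and 6.39 and then at 3.64, 6.78 and 5.95, with replicate 1 the lowest in each strain (log2 fold change -0.15, 95% interval -0.80 to 0.50, adjusted p = 0.789). lipl-6 lies on the minus strand of chromosome V, 6931622 to 6934288.

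lipl-4, whose product starts the lysosomal longevity signal, was low in both strains. It was at 2.78, 4.0 and 4.48 in the reference libraries and at 3.97, 5.36 and 3.25 in the ptr-8 libraries. The groups overlapped, and the log2 fold change was 0.13 (95% interval -0.40 to 0.65, adjusted p = 0.776). lipl-4 lies on the plus strand of chromosome V, 6550171 to 6551817, and 120 bp of it overlap the noncoding gene K04A8.15 on the other strand. K04A8.15 was listed at 18.9 in ptr-8 replicate 2, the library with the highest lipl-4 value, and at 0 in the other 5 libraries. No source used here says whether the libraries keep strand, and reads of the 2 genes cannot be told apart.

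lipl-3 was the lowest of the tested members, at 1.57, 2.53 and 2.66 in the reference libraries and 1.51, 2.19 and 1.67 in the ptr-8 libraries. The groups overlapped (log2 fold change -0.21, 95% interval -0.69 to 0.26, adjusted p = 0.571). The deposited intervals of lipl-3 reached 21.0% to 37.1% of the FPKM on either side, against 3.50% to 4.43% for lipl-5. lipl-3 was thus less exactly measured in each single library than lipl-5. It lies on the minus strand of chromosome V, 521676 to 524218. lipl-8, on the minus strand of chromosome V at 14745684 to 14748708, was listed at 0 in 5 libraries and at 0.103 in ptr-8 replicate 1. It did not reach the level needed for testing, and the deposited interval of its single value began at 0.

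The order of levels differed between the strains in the place of lipl-1 and lipl-2. In the reference strain the order was lipl-5, lipl-2, lipl-1, atgl-1, lipl-7, lipl-6, lipl-4, lipl-3 and lipl-8. lipl-2 and lipl-1, lipl-1 and atgl-1, and lipl-6 and lipl-4 had overlapping ranges there. In the ptr-8 strain the order was lipl-5, atgl-1, lipl-7, lipl-2, lipl-1, lipl-6, lipl-4, lipl-3 and lipl-8. From lipl-7 down to lipl-4 each gene there overlapped the next. lipl-5 stood clear of the second gene in both strains.

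In 7 of the 8 lipl genes, all but lipl-6, the longest coding sequence was 1203 to 1233 bp in the Ensembl 115 annotation, while it was 1773 bp in lipl-6 and 2253 bp in atgl-1. Of the 9, 7 lie on chromosome V, but none has another of the 9 as its nearest protein-coding neighbour. None of the 14 tested neighbours was called (lowest adjusted p = 0.0855). dhrs-4, which begins 489 bp after lipl-1, was at 78.6 and 67.9 (strain means; log2 fold change -0.20, adjusted p = 0.400), and nid-1 on the other side was at 43.8 and 45.4. Neighbours were looked up after the values of the lipases were seen.

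Genes whose course over the 6 libraries was most like that of a member were found by the root mean square difference of log2 levels, each centred on its own mean, among 14428 protein-coding genes. For lipl-1 they were Y47H10A.5 (difference 0.20), T24C4.4, now named clc-19 (0.24), and the saposin-like gene spp-4 (0.27). spp-4 was at 754, 639 and 923 in the reference libraries and 206, 144 and 174 in the ptr-8 libraries. For lipl-2 they were Y60A3A.23 (0.17), C45B2.3 (0.29) and the nuclear receptor gene nhr-280 (0.30). Y60A3A.23 was at 221, 112 and 133 and then at 103, 35.4 and 37.5, and so shared with lipl-2 the highest value in replicate 1 of each strain. For lipl-6 they were scrm-2 (0.07), C49A9.4 (0.07) and dhs-27 (0.07), whose lowest values, like those of lipl-6, were in replicate 1 of each strain. These are descriptions over 6 libraries.

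Among known regulators and partners of these lipases no gene passed. Of 27 listed genes 0 were called by limma and 5 had an unadjusted p below 0.05, against 20.6% of all tested genes, with a median log2 fold change of 0.00. The lowest p belonged to nhr-76, a nuclear receptor that acts upstream of atgl-1 (7.37 ± 1.38 and 12.4 ± 1.21, adjusted p = 0.0914). Next came pha-4, a FoxA factor needed for lifespan extension by dietary restriction (11.4 ± 1.21 and 7.74 ± 0.962, 0.118). nhr-62, a receptor with a role in dietary restriction, was at 5.59 ± 0.680 and 3.76 ± 0.615 (0.167). sbp-1, the SREBP homologue, was at 10.6 ± 0.955 and 13.7 ± 1.54 (0.200). The genes of the activator and the repressor named above were picked after their values were seen. hlh-30 was at 43.3, 46.0 and 47.7 in the reference libraries and 38.3, 42.7 and 38.95 in the ptr-8 libraries (log2 fold change -0.19, adjusted p = 0.289), a small difference without overlap. mxl-3 was at 41.8, 53.8 and 68.5 and then at 49.5, 65.3 and 108 (0.39, adjusted p = 0.523), with overlapping groups. lbp-8, also picked after its values were seen, was at 10.4, 11.2 and 3.93 and then at 2.88, 5.36 and 3.92 (-0.83, adjusted p = 0.287).

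Other lipases and droplet proteins gave 1 call each, lower in the ptr-8 strain, where 2.06% of all tested genes were called lower. Of 20 further lipase genes 13 were tested, and fil-1, a lipase induced by fasting, fell. It was at 9.57, 7.99 and 9.998 in the reference libraries and 4.88, 3.795 and 3.88 in the ptr-8 libraries (log2 fold change -0.97, adjusted p = 0.0307). The next by p in this list were lips-5 (adjusted p = 0.143), lips-7 (0.15) and lips-3 (0.166), each lower in all ptr-8 libraries. Their means were 9.34 and 5.60 for lips-5, 55.8 and 41.5 for lips-7 and 83.8 and 60.9 for lips-3. In 5 of the 13 all ptr-8 libraries lay below all reference libraries, and in 1 above, against 14.2% and 13.5% of all tested genes. lips-15, named after its values were seen, was at 67.3, 42.9 and 37.9 in the reference libraries and 87.3, 94.3 and 67.3 in the ptr-8 libraries, where the groups overlapped (log2 fold change 0.77, adjusted p = 0.167). Without reference replicate 1, 2 genes of this list were called lower and 1 higher. fil-1 passed in 6 of 14 alternatives. Its call was lost on the FPKM as deposited (adjusted p = 0.152), with no filter on level (0.0533), with the replicate block (0.0661) and without any 1 library other than reference replicate 1 (highest 0.134, without reference replicate 3). Of 9 droplet genes, dhs-3, which encodes a major droplet protein, fell from 186 ± 2.76 to 131 ± 9.40 (log2 fold change -0.50, adjusted p = 0.0485). With any 1 library left out dhs-3 was not called (adjusted p 0.0564 to 0.187), and it passed in 2 of 14 alternatives in all. lid-1, the partner gene of atgl-1, was at 28.5 ± 2.39 and 31.3 ± 0.315 (adjusted p = 0.457), abhd-5.1 at 9.91 ± 2.44 and 5.62 ± 1.86 (0.203) and fitm-2 at 82.6 ± 1.17 and 87.3 ± 8.80 (0.704). The median log2 fold change was -0.20 in the lipase list and 0.04 in the droplet list.

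Lysosomal hydrolase and membrane genes gave 3 calls among 23, all lower, where 2.06% of all tested genes were called lower. An unadjusted p below 0.05 in limma was found for 13, against 20.6% of all tested genes. All ptr-8 libraries lay below all reference libraries in 12 and above in 3, against 14.2% and 13.5% of tested genes. gba-1 and gba-4 belong to the glucocerebrosidase family, which splits glucosylceramide in the lysosome. gba-1 was at 61.5, 59.9 and 67.3 in the reference libraries and 27.5, 25.7 and 25.7 in the ptr-8 libraries (log2 fold change -1.23, adjusted p = 0.00453), and was called with each library left out in turn. gba-4 was at 84.5, 49.1 and 92.6 and then at 20.2, 15.5 and 18.99 (-1.95, adjusted p = 0.0214). lmp-2, of the LAMP family of lysosomal membrane proteins, was at 26.0 ± 0.626 and 16.6 ± 0.985 (-0.62, adjusted p = 0.0290). asm-2, an acid sphingomyelinase gene, was at 20.6 ± 4.10 and 8.33 ± 2.67 and did not pass (adjusted p = 0.0652). gba-4 lost its call without reference replicate 3 or any 1 ptr-8 library (highest adjusted p 0.0983, without reference replicate 3), and lmp-2 without any 1 library other than reference replicate 1 (highest 0.117, without reference replicate 3). lmp-2 was not called on the FPKM as deposited (adjusted p = 0.477) or with the replicate block (0.0833) either, and passed in 7 of 14 alternatives. The median of the list was -0.15. Reads shared between the gba genes could be split between them.

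Triglyceride synthesis and fasting genes did not add calls beyond fil-1, which belongs to the fasting list as well. None of 9 synthesis genes was called by limma, where 2.06% of all tested genes were called lower and 0.355% higher. An unadjusted p below 0.05, found in 20.6% of all tested genes, belonged to 1 of the 9. It was acl-6, an acyltransferase gene, at 22.7 ± 3.45 and 28.7 ± 1.05 (adjusted p = 0.212). acl-3, acl-2 and mboa-2, a diacylglycerol acyltransferase gene, had adjusted p of 0.426, 0.537 and 0.617. The list's median was 0.08. Of 6 tested fasting genes, sodh-1 (199.6 ± 18.6 and 143 ± 34.1), icl-1 and fat-7 had adjusted p of 0.210, 0.399 and 0.441, with a list median of -0.50. fil-1 was the 1 call, and 2 of the 6 had an unadjusted p below 0.05, against 20.6% of all tested genes. The list was not uniform. hacd-1 and acs-2, named after their values were seen, had log2 fold changes of 0.19 and -0.00025, and neither was called.

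**Figure D3:**
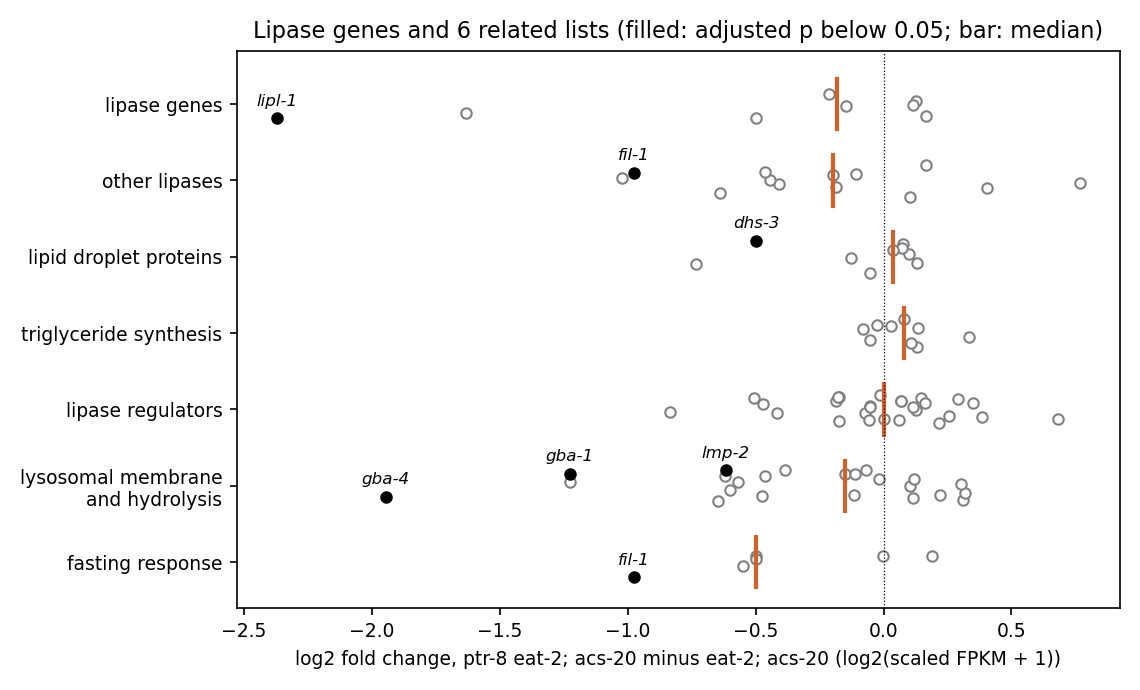
Log2 fold change (x axis, ptr-8 strain minus reference strain) of each tested gene in the lipase set and in 6 related lists, with filled points for called genes and a bar at each median. All 6 calls in the plot, lipl-1, fil-1, dhs-3, gba-1, gba-4 and lmp-2, lie left of 0, and fil-1 appears in 2 lists.

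Markers of tissue and stage were read in the same libraries. For 11 intestine markers the mean log2 level was 6.50 to 6.79 in the reference strain and 6.44 to 6.55 in the ptr-8 strain, and none was called. For 10 germline markers it was 5.63 to 5.95 and 6.16 to 6.26, without overlap, and none was called although all 10 had a positive fold change. For 10 epidermis markers it was 7.39 to 7.89 and 7.29 to 7.66, with overlap, and the ranges also overlapped for 8 neuronal, 7 body wall muscle and 4 pharyngeal muscle markers. Every marker of these lists was detected, and none was called, where 2.06% of all tested genes were called lower and 0.355% higher. Of the intestine markers 7 had a negative and 4 a positive fold change, and of the epidermis markers 8 and 2. An unadjusted p below 0.05 in limma was found for 5 germline, 4 intestine and 0 epidermis markers, against 20.6% of all tested genes. All ptr-8 libraries lay above all reference libraries in 7 germline and 2 intestine markers, and below in 0 and 3. Over all tested genes these shares were 13.5% and 14.2%. For the 4 adult-stage collagens the mean log2 level was 8.22, 7.26 and 6.30 in the reference libraries and 8.69, 8.23 and 8.62 in the ptr-8 libraries. Of these 4 collagens 3 had a positive fold change and 1, col-63, a negative one (-0.22), and none was called. col-19 was at 238 ± 176 and 726 ± 129 (SD, n = 3 each; log2 fold change 1.91, adjusted p = 0.167), without overlap. The part of stage and of germline content in the lipase differences was not tested.

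**Figure D4:**
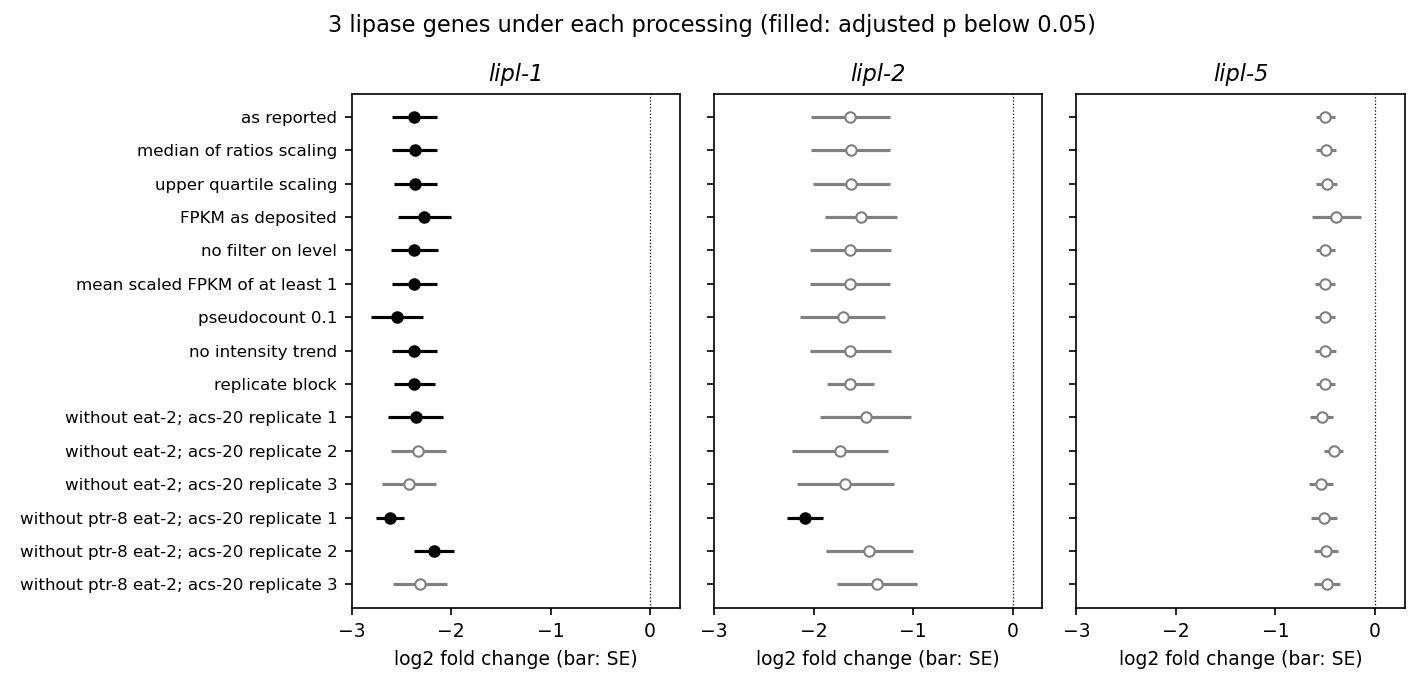
Log2 fold change (x axis, bars: SE) of lipl-1, lipl-2 and lipl-5 as reported and under 14 other ways of processing, with filled points where the adjusted p was below 0.05. lipl-1 stays between -2.61 and -2.17 and is filled in 11 of the 14, lipl-2 is filled in 1 and lipl-5 in none.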

How the data were processed

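Each library has a table of genes that the authors deposited, with an FPKM, its interval and a status flag, in the Cufflinks layout per the file headers. TopHat2, HTSeq, DESeq2 and FastQC 0.11.5 are listed with no roles in the submitters' processing notes. The genome build is not given in the sources used here. Coordinates are as in the files, with the start raised by 1. Each of the 9 lipase genes lay on the chromosome that WBcel235 gives for it, with ends that differed by up to 2253 bp. Strand and exons come from Ensembl 115.

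FPKM was divided by a trimmed-mean factor per library (0.872 to 1.33). Loci under 200 bp and 10 genes marked FAIL were left out, and genes had to reach a scaled FPKM of 1 in 3 or more libraries. The model, in limma 3.58.1 under R 4.3.3 with an intensity trend, took log2(scaled FPKM + 1) and a single term for strain. It was also run on simulated data with independent noise in each library, which does not show how far the calls hold in these data. No library was a copy of another. The deposited intervals cover neither culture nor library differences.

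The lipase genes and the other lists were chosen with earlier results of these data known. Named genes are all members, the called genes of each list or its 4 lowest p, and for the 3 members of largest SD the 3 most similar genes. In the lists, lips-4 was not matched and is not analysed here, and gei-7, an older name of icl-1, was not matched under that name, while icl-1 was tested. Alternatives were median-of-ratios, upper-quartile and no scaling, other filters, a pseudocount of 0.1, no trend, a replicate block and leaving out each library. Protein and promoter sequences were not used here.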

Additional observations from a re-analysis of the deposited data

How the results depend on the processing

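The number of lipase genes called higher was 0 under all 14 alternatives (limma), and the number called lower was 1 under all but the fits with 1 library left out, where it ran from 0 to 2. Over all genes, the calls lower and higher were 313 and 54 as reported and ran from 45 to 394 and from 14 to 280 with 1 library left out. On the FPKM as deposited, 178 genes were called lower, and the median gene had a log2 fold change of 0.10 in place of 0.01. With the replicate block 139 were called lower and 26 higher, and lipl-1 was called (adjusted p = 0.0419). Same-numbered libraries deviated together with correlations across genes of 0.25, 0.05 and 0.03, and only replicate 1 correlated best with its own number, so the numbers were not taken as a pairing. With 1 library left out the sign of some small fold changes turned. lipl-4 ran from -0.030 (without reference replicate 1; -0.029 without ptr-8 replicate 2) to 0.26, lipl-6 from -0.35 to 0.077 (without ptr-8 replicate 1; 0.011 without reference replicate 2) and lipl-7 from -0.024 (without reference replicate 1) to 0.19 (without reference replicate 3). The cause was not tested. lipl-1 passed in 11 of 14 alternatives, and lipl-2 in 1. lipl-8 was tested only with no filter on level (log2 fold change 0.05, adjusted p = 0.718). Low FPKM limits what can be seen of lipl-3, lipl-4 and lipl-8.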
